A study of Mus musculus with 6 samples.

Results

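NRF2, encoded by Nfe2l2, and its antioxidant target genes were described in mouse 3T3 cells given siRNAs against the genes of the SAFB proteins. The 10 genes, of 54532 listed in the count files, were Nfe2l2, its inhibitor gene Keap1, the classical NRF2 targets Hmox1, Nqo1, Gclm, Gclc, Srxn1, Txnrd1 and Slc7a11, and Eid3, which lies inside Txnrd1. They were chosen by name with their behaviour in this comparison already known, so their values are given as a description, with no test. All 10 passed the limit of 10 reads summed over the 6 libraries.

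Poly(A)+ RNA was sequenced from Flp-In 3T3 cells, an established line of mouse embryonic fibroblasts carrying a recombination site. The control group (3 libraries) received a control siRNA, and the SAFB KD group (3 libraries, triple KD in the labels) received siRNAs that target Safb, Safb2 and Sltm together; these genes encode related nuclear RNA-binding proteins. According to the methods of the study, the siRNA was given at seeding and again a day later, and the cells were harvested on the third day. The replicates are described as biological, came from 1 cell line, and held between 33323307 and 53441129 counts each.

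NRF2 is a basic leucine zipper transcription factor that KEAP1, an adaptor of the CUL3 ubiquitin ligase, holds at a low level by marking it for degradation. Oxidants and electrophiles modify KEAP1, after which NRF2 accumulates, pairs with small MAF proteins and binds antioxidant response elements near genes of glutathione synthesis, quinone reduction, thioredoxin recycling and heme breakdown. Because this control acts on the protein, the RNA level of Nfe2l2 does not measure NRF2 activity, and protein was not analysed here. Several targets are also controlled by other factors, such as BACH1 at Hmox1 and ATF4 at Slc7a11.

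The 10 genes did not move together. Hmox1, Slc7a11 and Eid3 were 3.63-fold, 2.98-fold and 4.69-fold higher in SAFB KD, whereas the other 7 genes differed by at most 1.11-fold in either direction. The glutathione and quinone genes Gclc, Gclm and Nqo1 had log2 fold changes of -0.05, -0.07 and -0.14. By the edgeR quasi-likelihood test over all genes, 5 of the 10 were called higher, 1 lower and 4 in neither direction, where 41.5% of all 19452 tested genes were called (21.4% higher, 20.1% lower). Beyond 2-fold, 3 of the 10 were called higher and 0 lower, against 1.22% of all genes (0.699% higher, 0.524% lower). The control and SAFB KD libraries did not overlap for 9 of the 10 genes (6 higher, 3 lower), and for 49.0% of all genes (25.3% higher, 23.7% lower). Since the same contrast was used to choose the genes, nothing is read from these shares. The median log2 fold change was 0.08 over the 10 genes and 0.01 over all tested genes. Control 3 stood apart from the other controls on the second principal component of log2 CPM, which held 5.78% of the variance against 82.4% for the component that separated the groups. Without it, the log2 fold changes of Hmox1, Slc7a11 and Eid3 were 1.83, 1.48 and 2.15, and the counts of called members did not change.

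Promoters of 4 of these genes are shown, 1 that was much higher in SAFB KD and 3 that differed little. Promoter sequences of 300 bases, of which the last 50 follow the start, were taken from RefSeq on GRCm38.p6, where 7 of the 10 genes matched with 9 promoters, 3 of them of Txnrd1. Hmox1, Gclc and Eid3 had no entry. Capitals mark matches, on either strand, to TGACNNNGC (the core of the antioxidant response element), TGACTCA (an AP-1 site) or TGATGCAA (a C/EBP-ATF element). Slc7a11 is shown for its pair of TGATGCAA matches, and Gclm, Srxn1 and Txnrd1 for TGACNNNGC. All are written 5′ to 3′ on the strand of the gene.
Slc7a11 (chr3:50443564-50443863, minus strand): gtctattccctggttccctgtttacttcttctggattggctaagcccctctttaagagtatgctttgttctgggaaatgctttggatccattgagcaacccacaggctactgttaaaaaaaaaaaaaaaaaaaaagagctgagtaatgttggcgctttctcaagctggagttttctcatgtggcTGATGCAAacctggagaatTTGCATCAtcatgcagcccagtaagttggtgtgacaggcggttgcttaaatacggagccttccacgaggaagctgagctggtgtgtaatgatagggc
Gclm (chr3:122245307-122245606, plus strand): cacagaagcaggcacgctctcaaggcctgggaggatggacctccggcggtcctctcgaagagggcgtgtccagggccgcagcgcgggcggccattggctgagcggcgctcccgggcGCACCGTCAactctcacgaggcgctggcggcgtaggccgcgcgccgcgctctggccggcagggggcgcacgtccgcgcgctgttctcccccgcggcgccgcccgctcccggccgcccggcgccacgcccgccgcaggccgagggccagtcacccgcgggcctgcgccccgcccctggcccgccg
Srxn1 (chr2:152105274-152105573, plus strand): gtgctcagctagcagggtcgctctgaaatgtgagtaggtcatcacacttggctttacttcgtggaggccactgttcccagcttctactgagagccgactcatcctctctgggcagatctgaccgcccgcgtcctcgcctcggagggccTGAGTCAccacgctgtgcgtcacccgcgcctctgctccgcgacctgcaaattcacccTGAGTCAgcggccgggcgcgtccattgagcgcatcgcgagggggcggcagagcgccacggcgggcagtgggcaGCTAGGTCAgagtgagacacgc
Txnrd1 (chr10:82858956-82859255, plus strand): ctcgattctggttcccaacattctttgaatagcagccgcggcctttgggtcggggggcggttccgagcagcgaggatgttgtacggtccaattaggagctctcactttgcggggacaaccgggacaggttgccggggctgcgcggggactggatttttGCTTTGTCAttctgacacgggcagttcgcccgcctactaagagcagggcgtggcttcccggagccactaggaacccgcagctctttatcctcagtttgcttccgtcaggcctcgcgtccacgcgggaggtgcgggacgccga

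TGACNNNGC was found in 4 of the 9 promoters, those of Gclm, Nfe2l2, Srxn1 and the middle one of the Txnrd1 starts, and in 12.39% of all 32851 promoters. In Gclm it lay 134 to 126 bases before the start, in Nfe2l2 240 to 232 bases before, in Txnrd1 92 to 84 bases before, and in Srxn1 from 28 to 36 bases after it. Srxn1 also held the only TGACTCA matches, at 102 and 45 bases before the start, a motif in 5.202% of all promoters. The latter of them is followed by GC and so also matches the looser form TGANNNNGC, which 41.34% of all promoters hold. TGATGCAA was found in Slc7a11 alone among the 7 genes, from 66 to 59 bases before the start and, on the opposite strand, from 47 to 40 bases before. It is in 0.8949% of all promoters. Slc7a11 and Keap1 held no TGACNNNGC in these windows, nor did Nqo1. A match is a description of the letters, and elements outside the window, where distal enhancers of such genes lie, were not searched.

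**Figure D1:**
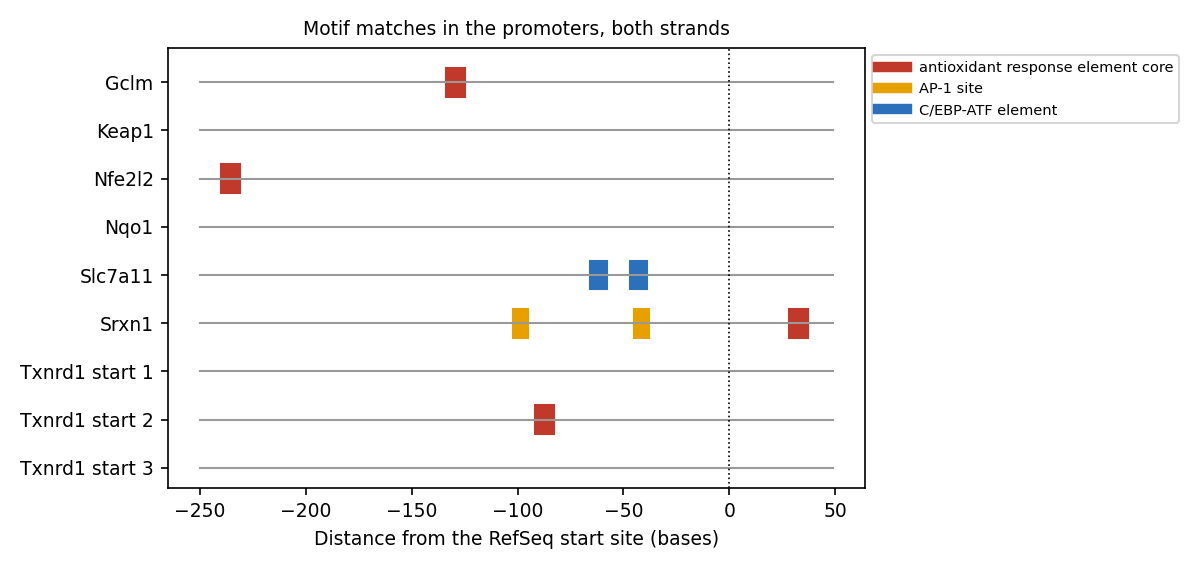
Motif matches (coloured boxes) in 9 promoters of 7 of the genes, by distance from the RefSeq start site in bases (x axis, start dotted). The antioxidant response element core is in 4 promoters, and the C/EBP-ATF element occurs only in Slc7a11, at 66 and 47 bases before the start.

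Hmox1 (ENSMUSG00000005413, chromosome 8, 75093621 to 75100589, plus strand, GRCm38) encodes heme oxygenase 1, the inducible enzyme that opens the heme ring to give biliverdin, carbon monoxide and iron. It was at 33.9, 33.8 and 33.0 CPM (read counts scaled to library size with TMM factors) in control 1 to 3, and at 118, 123 and 123 CPM in SAFB KD 1 to 3. Each SAFB KD library lay far above each control, and the replicates lay close together. Means were 33.6 ± 0.504 CPM in control and 122 ± 2.97 CPM in SAFB KD (SD, n = 3), a log2 fold change of 1.86 (SE 0.038). In size, this change was equal to or above that of 96.1% of all tested genes. Hmox2, which encodes the constitutive heme oxygenase, was also called higher, by 0.20 on the log2 scale (SE 0.034; edgeR adjusted p = 6.12e-06). Per kb of exon, the ratio of Hmox1 to Hmox2 was 0.478 ± 0.0105 in control and 1.51 ± 0.0444 in SAFB KD (SD, n = 3).

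Slc7a11 (ENSMUSG00000027737, chromosome 3, 49892526 to 50443614, minus strand) encodes xCT, the light chain of the antiporter that brings in cystine for glutathione synthesis. Its level was 13.6, 13.9 and 11.2 CPM in control and 37.4, 40.8 and 37.7 CPM in SAFB KD. The groups were well apart, with control 3 the lowest library. Means were 12.9 ± 1.45 and 38.6 ± 1.86 CPM, a log2 fold change of 1.58 (SE 0.064). Slc3a2, which encodes the heavy chain of the same transporter, was higher by 0.88 (SE 0.033; edgeR adjusted p = 1.20e-23). Per kb, Slc7a11 stood at 2.77% ± 0.345 of Slc3a2 in control and at 4.51% ± 0.179 in SAFB KD (SD, n = 3). These percentages depend on the length used: merged exons of Slc7a11 total 13.922 kb, and its longest transcript has 9223 bases.

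Gclc and Gclm encode the catalytic and the modifier subunit of glutamate-cysteine ligase, the rate-limiting enzyme of glutathione synthesis. Gclc was at 45.9, 45.6 and 44.9 CPM in control and 43.1, 42.9 and 45.5 CPM in SAFB KD, a log2 fold change of -0.05 (SE 0.044). It was the member whose groups overlapped, through SAFB KD 3. Gclm was at 125, 122 and 127 CPM in control and 120.3, 118 and 117 CPM in SAFB KD, a log2 fold change of -0.07 (SE 0.033). All 3 SAFB KD libraries of Gclm lay below all 3 controls, by a small margin. The ratio of Gclm to Gclc per kb was 1.64 ± 0.0455 in control and 1.62 ± 0.0724 in SAFB KD (SD, n = 3), a difference within the spread of the libraries.

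Nqo1 encodes the NAD(P)H quinone reductase often used as a marker of NRF2 activity. It was at 96.3, 95.9 and 90.2 CPM in control and at 81.3, 86.6 and 87.6 CPM in SAFB KD. Every SAFB KD library was below every control, with means of 94.1 ± 3.40 and 85.1 ± 3.41 CPM and a log2 fold change of -0.14 (SE 0.037). Nqo1 and Hmox1 thus differed in direction in the same libraries, and the ratio of Hmox1 to Nqo1 per kb was 0.316 ± 0.00684 in control and 1.27 ± 0.0210 in SAFB KD (SD, n = 3).

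Srxn1 and Txnrd1 encode sulfiredoxin, which restores over-oxidized peroxiredoxins, and the cytosolic thioredoxin reductase. Srxn1 was at 127, 129 and 131 CPM in control and 141, 141 and 139 CPM in SAFB KD, a log2 fold change of 0.12 (SE 0.032). Txnrd1 was the most abundant of the 10 by read share, at 230.5, 230.3 and 228 CPM in control and 236, 236 and 239 CPM in SAFB KD, a log2 fold change of 0.05 (SE 0.030). For both genes the groups were apart, yet the difference was small.

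The regulators themselves were near control. Nfe2l2 was at 123, 116 and 113 CPM in control and at 134, 129.9 and 128 CPM in SAFB KD, a log2 fold change of 0.15 (SE 0.035). Keap1 was at 37.9, 37.4 and 40.3 CPM in control and at 36.4, 34.7 and 36.7 CPM in SAFB KD, a log2 fold change of -0.10 (SE 0.048). The groups of each gene were apart, in opposite directions. The ratio of Keap1 to Nfe2l2 per kb was 0.267 ± 0.0203 in control and 0.223 ± 0.00819 in SAFB KD (SD, n = 3).

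**Figure D2:**
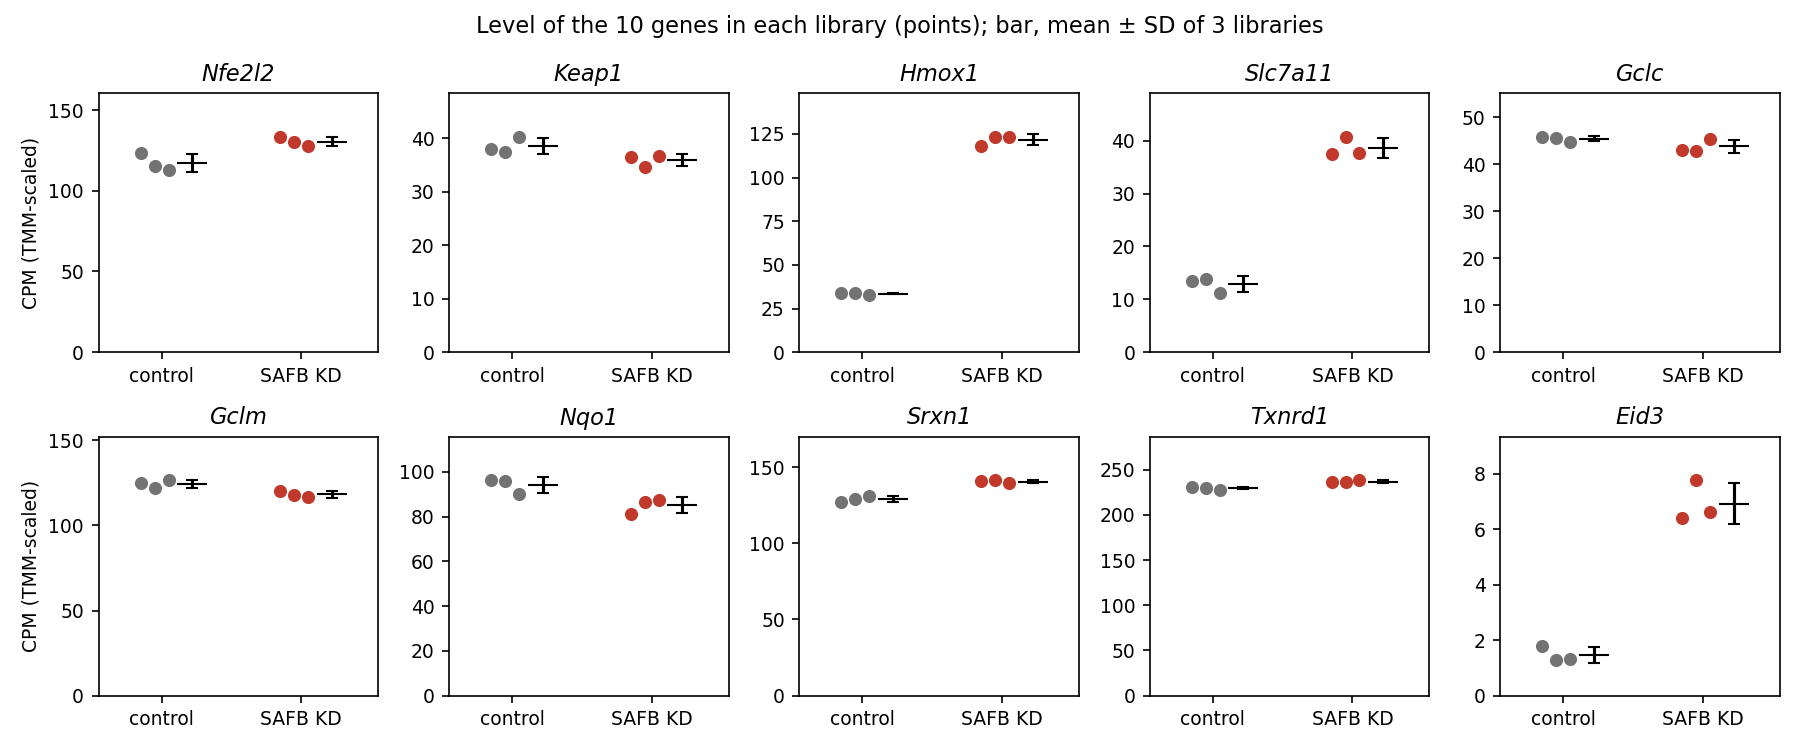
TMM-scaled CPM (y axis, from 0) of the 10 genes in each library, 3 of control (grey) and 3 of SAFB KD (red), with the mean and SD beside the points. Hmox1 (33.6 to 122), Slc7a11 (12.9 to 38.6) and Eid3 (1.46 to 6.93) stood well apart between groups, and the other 7 genes did so by little or not at all.

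Eid3 (ENSMUSG00000109864, chromosome 10, 82866626 to 82867930, plus strand) is a gene of 1 exon of 1305 bases that encodes an EP300-interacting inhibitor of differentiation. It is not an antioxidant gene by annotation and belongs here through its position. It lies on the same strand as Txnrd1 (chromosome 10, 82833951 to 82897712), 32.7 kb after the first annotated base of that gene. No annotated Txnrd1 exon falls in the 11988 bases around Eid3 (82860950 to 82872937), and the introns of single transcripts that hold it are longer. Of 8 annotated Txnrd1 transcripts, 6 have Eid3 in an intron, and the genes share 0 exonic bases. Eid3 had 78, 52 and 44 counts in control and 225, 335 and 347 counts in SAFB KD, or 1.80, 1.28 and 1.31 against 6.39, 7.77 and 6.62 CPM. Groups were well apart, with a log2 fold change of 2.23 (SE 0.140), the largest of the 10. Per kb, Eid3 was at 3.46% ± 0.675 of Txnrd1 in control and 15.9% ± 1.73 in SAFB KD (SD, n = 3). Both percentages use the merged exons of Txnrd1 (7.086 kb) and would be lower with its longest transcript (3622 bases). A gene count assigns a read on this exon to Eid3 whichever transcript it came from, so RNA started at Eid3 and RNA spanning it from Txnrd1 cannot be told apart.

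**Figure D3:**
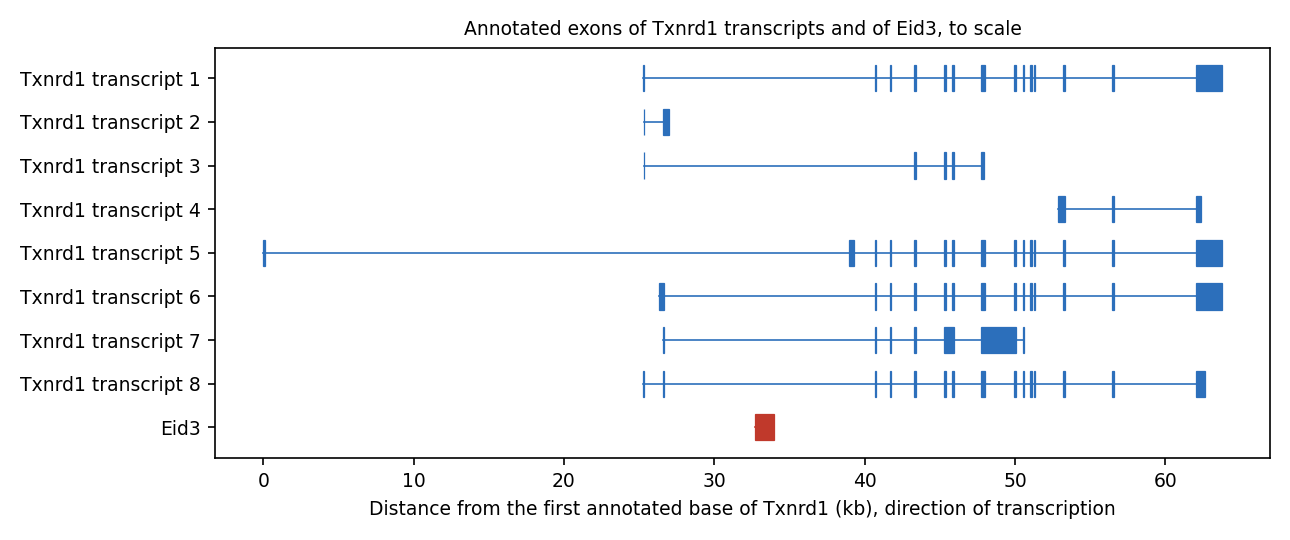
Exons (boxes) of 8 annotated Txnrd1 transcripts (blue) and of Eid3 (red) to scale, by distance in kb from the first annotated base of Txnrd1. Eid3 begins at 32.7 kb, inside an intron of 6 transcripts.

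**Figure D4:**
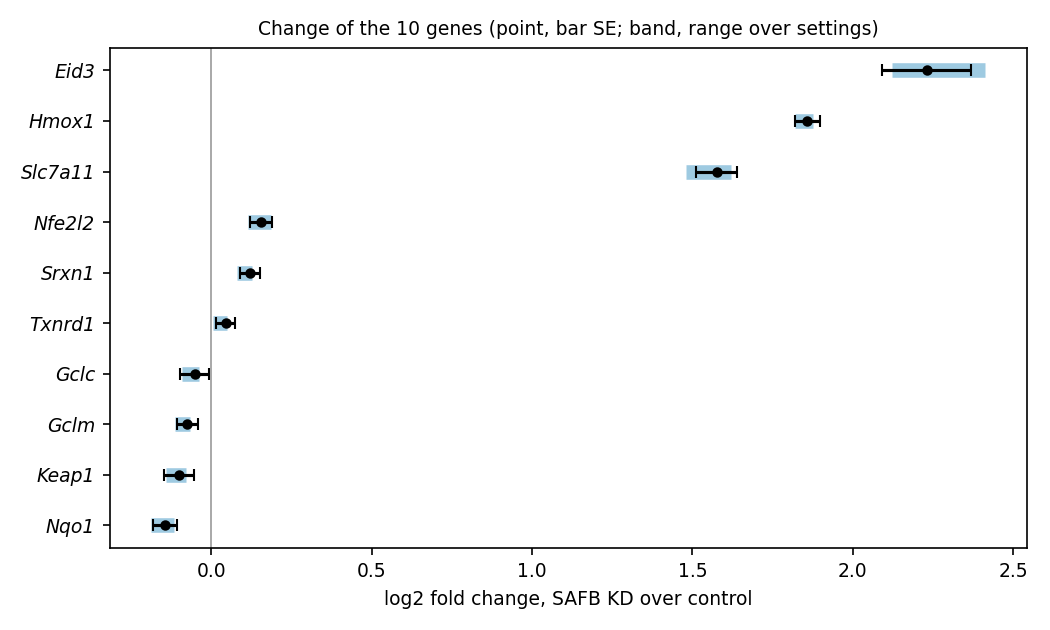
Log2 fold change of SAFB KD over control (x axis) for each of the 10 genes, with its SE (bar) and its range over the alternative filters, scalings, tools and left-out libraries (blue band). Eid3 (2.23), Hmox1 (1.86) and Slc7a11 (1.58) lie far to the right of the other 7, which run from -0.14 to 0.15.

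Compared per kb of exon, with all annotated exons of a gene merged, Nqo1 was the highest of the 10 in control at 60.6 CPM per kb. It was followed by Srxn1 (45.8), Txnrd1 (32.4), Nfe2l2 (30.9), Gclm (19.8), Hmox1 (19.2), Gclc (12.1), Keap1 (8.21), Eid3 (1.12) and Slc7a11 (0.926). This order depends on the length used: merged exons of Txnrd1 and Slc7a11 total 7.086 and 13.922 kb, whereas their longest transcripts have 3622 and 9223 bases. Libraries of Txnrd1 and Nfe2l2 overlapped, as did those of Eid3 and Slc7a11, so that these neighbours did not differ beyond their spread. In SAFB KD, Hmox1 led at 69.5 CPM per kb, ahead of Nqo1 (54.8) and Srxn1 (49.8). Below them stood Nfe2l2 (34.4), Txnrd1 (33.4), Gclm (18.8), Gclc (11.6), Keap1 (7.65), Eid3 (5.31) and Slc7a11 (2.77), and no neighbours in this order overlapped. Hmox1 therefore went from the sixth place to the highest, and the rest kept the same order among themselves except that Nfe2l2 and Txnrd1 exchanged places. That exchange rests on the merged exon lengths (7.086 kb for Txnrd1, 3.796 kb for Nfe2l2). By read share, Txnrd1 stayed above Nfe2l2 in both groups.

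Genes that control NRF2 changed in both directions. Of 15 tested, 6 were higher and 5 lower, with a median log2 fold change of -0.01. These are 40% and 33.3%, against 21.4% and 20.1% of all genes. Shares of this list and of those below were not tested, and the shares of all genes are not matched to the lists for abundance. Some genes belong to several lists, so the counts of the lists are not independent. Nfe2l1, a relative of Nfe2l2 that induces proteasome genes, had means of 352 ± 7.27 CPM in control and 515 ± 21.8 CPM in SAFB KD (SD, n = 3), a log2 fold change of 0.55 (SE 0.031; edgeR adjusted p = 6.05e-18). Sqstm1, which encodes the autophagy receptor p62 that binds KEAP1, was higher by 0.43 (SE 0.030), and the small MAF partner genes Mafk and Maff by 0.57 and 0.48. Gsk3b, a kinase gene of the other NRF2 degradation route, was lower (-0.38, SE 0.040). Rxra (-0.36), the ubiquitin ligase scaffold gene Cul3 (-0.19) and Bach2 (-0.69) were lower as well. Nfe2l3 had 18 counts over the controls and 0 over SAFB KD, at least 6.67-fold lower with a floor of 3 counts over the group, and DESeq2 gave it no adjusted p. Bach1, the heme-sensing repressor of Hmox1, was at 42.0 ± 1.41 and 41.3 ± 1.47 CPM and was not called (edgeR adjusted p = 0.745). Bach1, Bach2 and Nfe2l3 were singled out after their values were seen.

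Other NRF2 targets were split as well. Of 33 tested, 16 were higher and 7 lower (48.5% and 21.2%, against 21.4% and 20.1% of all genes), with a median of 0.09. Fth1, the ferritin heavy chain that stores iron, was at 1114, 1115 and 1099 CPM in control and at 2329, 2383 and 2466 CPM in SAFB KD. Its groups were far apart, with a log2 fold change of 1.11 (SE 0.028; edgeR adjusted p = 2.60e-29), and it was the 1 gene of the list called beyond 2-fold. That call was lost without control 2 (log2 fold change 1.10), without SAFB KD 3 (1.09) and with total counts as the scale (1.07). Ftl1, the ferritin light chain, was lower by contrast (-0.16, SE 0.035; edgeR adjusted p = 0.000246). The ratio of Fth1 to Ftl1 per kb went from 0.693 ± 0.0509 to 1.66 ± 0.0517 (SD, n = 3). Ftl1 belongs to a family with many processed copies, whose shared reads the counting leaves out.

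Among the other targets, enzymes of the same branch of metabolism differed. In the pentose phosphate pathway, which makes NADPH, Tkt (0.38) and Taldo1 (0.28) were higher, whereas Pgd was lower (-0.24). G6pdx, the entry enzyme, was called higher at 0.08, a call lost in 8 of the 13 alternatives, among them those without control 2, control 3, SAFB KD 1 or SAFB KD 3. The drug exporter gene Abcc1 was higher by 0.37 (SE 0.032), Ugdh, which makes UDP-glucuronic acid, by 0.27, Akr1b8 by 0.12, and the redox genes Prdx1 and Txn1 by 0.19 and 0.15. The glutathione transferase genes Gsta4 (-1.08, SE 0.058; edgeR adjusted p = 9.37e-19) and Gstm1 (-0.43), and the NADPH-producing Idh1 (-0.45), were lower. Ptgr1, named after its value was seen, was at 0.29 (called), and Prdx6 was at -0.05 (not called). Gsta1 and Gsta2, with 3 counts each in all, were not tested.

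Heme metabolism genes were higher in 7 cases of 15 tested and lower in 3, with a median of 0.08. These are 46.7% and 20%, against 21.4% and 20.1% of all genes. Cpox, coproporphyrinogen oxidase, was the most changed, from 38.1 ± 1.37 to 64.1 ± 1.80 CPM (SD, n = 3), and its log2 fold change was 0.76 (SE 0.043; edgeR adjusted p = 6.76e-18). Alas1, the rate-limiting enzyme of heme synthesis outside red cells, was higher by 0.57 (SE 0.058), Alad by 0.28, and the heme exporter gene Flvcr1 by 0.27. Slc48a1, a heme importer of lysosomes, was higher by 0.13. Fech, which inserts iron to complete heme, was lower (-0.24), as were the mitochondrial transporter gene Abcb10 (-0.16) and Uros (-0.24). Uros was not called once control 2, control 3 or any of the 3 SAFB KD libraries was left out, nor with no filter on low counts, DESeq2 or limma-voom. Blvra and Blvrb, the biliverdin reductases that act after heme oxygenase, were both at 0.08 and not called, and are named after their values were seen. Flvcr2 had 0 counts.

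Glutathione genes other than Gclc and Gclm were mostly higher: 16 of 22 tested were higher and 3 lower, with a median of 0.21. These are 72.7% and 13.6%, against 21.4% and 20.1% of all genes. Chac1, a glutathione-degrading cyclotransferase, was at 12.5, 9.67 and 9.94 CPM in control and 30.4, 34.4 and 32.2 CPM in SAFB KD, higher beyond 2-fold (log2 fold change 1.59, SE 0.071; edgeR adjusted p = 3.71e-21). Gsto1 was higher by 0.44, the glutaredoxin genes Glrx and Glrx3 by 0.54 and 0.35, and Gpx4, the lipid peroxide reductase, by 0.36. Mgst3 (-0.59), Ggt7 (-0.54) and Gpx8 (-0.10) were lower, the last not called without control 3 or without SAFB KD 1. Slc3a2 and Chac1, which are also ATF4 targets, had the smallest adjusted p in this list.

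Of 19 thioredoxin, peroxiredoxin and related genes, 11 were higher and 4 lower (median 0.16), or 57.9% and 21.1%, against 21.4% and 20.1% of all genes. Prdx5 (0.68, SE 0.033; edgeR adjusted p = 3.80e-20) and Prdx3 (0.39) encode mitochondrial peroxiredoxins, Nxn nucleoredoxin (0.57), and Sesn2 a sestrin (0.64). The other sestrin genes, Sesn3 (-0.61) and Sesn1 (-0.57), were lower, as were Prdx2 (-0.16) and Msrb2 (-0.93). Txnip, an inhibitor of thioredoxin, was higher by 0.37, Txnl1 by 0.16, and Prdx4 was not called (0.05). Of 7 genes of superoxide and peroxide removal, 4 were higher (Pon2 0.38, Aifm2 0.29, Sod2 0.16 and Sod1 0.12) and 3 lower (catalase, Cat, -0.25, Sod3 -0.49 and Pon3 -0.74). These are 57.1% and 42.9%, against the same shares of all genes.

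Targets of ATF4, the transcription factor of the integrated stress response that also acts on Slc7a11, were higher in 11 of 11 cases, with a median log2 fold change of 0.81. Of all genes, 21.4% were called higher. Trib3, a pseudokinase gene, was at 27.7, 25.2 and 23.9 CPM in control and 86.1, 98.4 and 87.8 CPM in SAFB KD (log2 fold change 1.82, SE 0.050; edgeR adjusted p = 4.45e-28). Trib3, Chac1 and Ddit3 (1.22) were higher beyond 2-fold. The call on Ddit3 beyond 2-fold was not made when control 3 (1.18), SAFB KD 2 (1.19) or SAFB KD 3 (1.19) was left out, nor with DESeq2 (adjusted p = 0.306) or limma-voom (adjusted p = 0.0716). Ddit4 (1.02), Slc3a2 (0.88), Asns (0.81), Psat1 (0.63), Phgdh (0.66), Sesn2 (0.64) and Atf4 itself (0.54) were higher too. Atf5 was higher by 0.11, a call that was lost without control 1, without SAFB KD 3 and with total counts as the scale. Stress response genes were known to be mostly higher in these libraries when the list was chosen, so its count is not independent evidence.

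Lists of other stress responses were mixed. In the metal response, which shares Hmox1 as a target, Mt1 was higher by 0.37 and Mt2 was at -0.01 and not called. Mtf1 (0.14) was called higher and Slc30a1 (-0.20) lower, but Mtf1 was not called when control 2, control 3, SAFB KD 1 or SAFB KD 3 was left out, nor with total counts as the scale or DESeq2. Slc30a1 was not called when control 1, control 2 or SAFB KD 3 was left out, nor with no filter on low counts or DESeq2. Among 7 heat shock genes tested, 3 were higher and 1 lower (42.9% and 14.3%, against 21.4% and 20.1% of all genes). Hsp90aa1 was higher by 0.65 (SE 0.034; edgeR adjusted p = 5.65e-19), Hsph1 by 0.12, and Hspa8 was lower (-0.18). Hspa1b was called higher at 0.23, which was lost in 9 of the 13 alternatives, among them those without any library but control 3. Hspa1a, Dnajb1 and Hsf1 were not called.

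**Figure D5:**
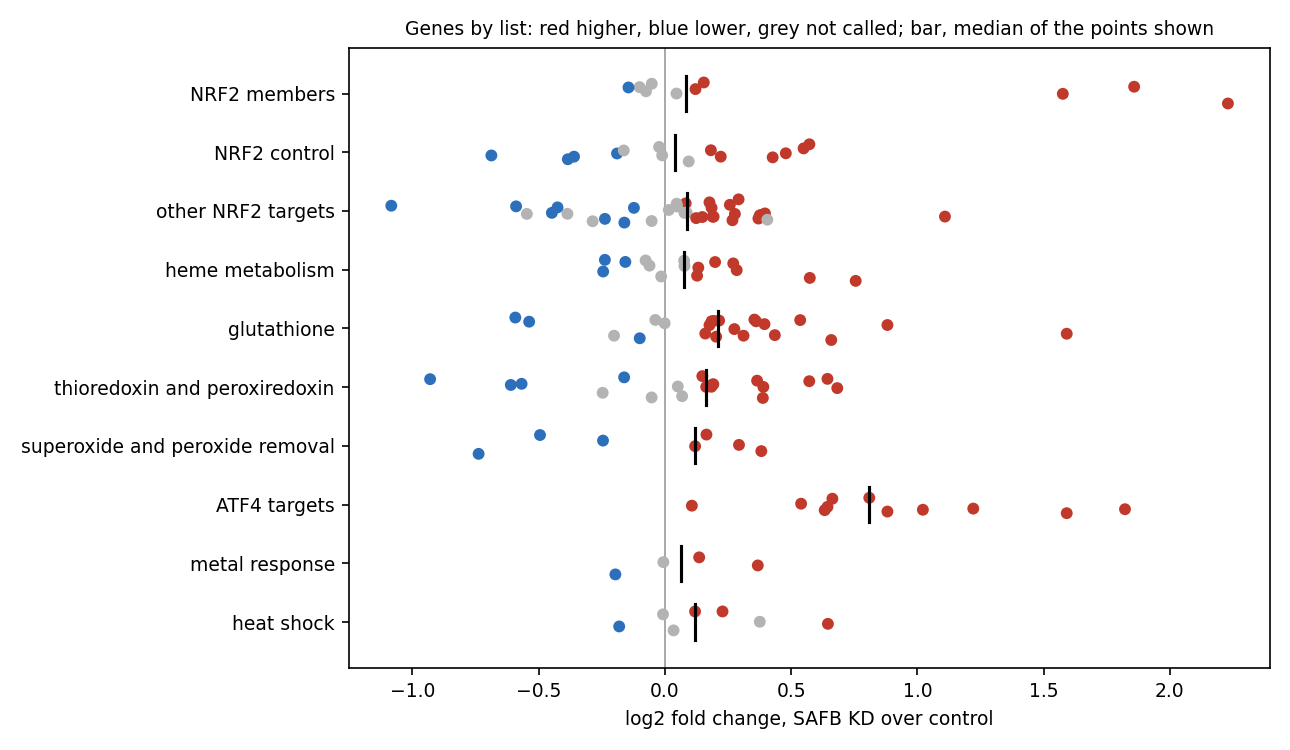
Log2 fold change of SAFB KD over control (x axis) for each tested gene of the 10 lists (y axis), coloured by the edgeR call, with the median of the points as a black bar. ATF4 targets are all to the right of 0 with a median of 0.81, and the other lists hold genes on both sides. Nfe2l3, at 0 in SAFB KD, is not drawn, so that the bar of the NRF2 control list differs from its median of -0.01.

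Genes whose profile over the 6 libraries was most like that of a member were ranked by Euclidean distance of centred log2 CPM, among the 10193 genes that averaged 5 CPM or more. The nearest to Hmox1 were Ppbp (distance 0.116), Hsd3b6 (0.118), Cck (0.150), Trib3 (0.181) and Itga2 (0.216). They encode a chemokine, a steroid dehydrogenase, the hormone cholecystokinin, the pseudokinase above and an integrin subunit. The nearest to Eid3 were the angiogenin family gene Ang2 (0.531), Trib3 (0.545), Hmox1 (0.599), Ppbp (0.621) and U90926 (0.626). The distances of Eid3 were larger than those of Hmox1, and Eid3 had at most 347 counts in a library. Besides Hmox1, no member was among these neighbours. Eid3, with a mean of 4.19 CPM, was below the limit and could not have been listed for Hmox1. Distance here follows mostly the difference between the groups, the contrast by which the members were chosen, so the ranking is not independent evidence. The neighbours of Hmox1 had log2 fold changes of 1.73 (Itga2) to 1.91 (Ppbp). Control means of Ppbp (4.21 CPM), Hsd3b6 (2.60), Ang2 (3.74) and U90926 (2.27) lay below the limit. These genes passed it only through SAFB KD.

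Other annotated genes overlap the spans of Gclm, Keap1, Nfe2l2, Slc7a11 and Txnrd1. Gm6061, a processed pseudogene inside Gclm on the same strand that shares 244 exonic bases with it, had 20, 15 and 12 counts in control and 16, 47 and 45 counts in SAFB KD. It was called higher (log2 fold change 1.03, SE 0.340; edgeR adjusted p = 0.0132) although SAFB KD 1 lay among the controls. Reads on shared bases are left out of both genes. Gm17494 (opposite Gclm), Gm16754 (opposite Keap1), Gm24996 (within Nfe2l2), Gm38560 (opposite Txnrd1) and Gm37854 (opposite Slc7a11) had between 14 and 332 counts in all and were not called.

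GAAGAA, the motif named by the study for SAFB proteins, was counted on the longest annotated transcript of each gene. Its density was highest in Nqo1, at 3.22 per kb, above or equal to 95.6% of 19430 genes. Eid3 (1.53 per kb), Hmox1 (1.27) and Srxn1 (1.07) lay above the median of all genes (0.646), as did Keap1 (0.830) and Txnrd1 (0.828). Gclm (0.537), Slc7a11 (0.434), Nfe2l2 (0.404) and Gclc (0.292) lay below it. The 3 genes that were higher beyond 2-fold were on both sides of the median. Introns were not searched for the motif, and binding of SAFB proteins to these genes was not analysed here.

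The knockdown targets were lower in every SAFB KD library than in every control. Safb was at 90.2, 94.8 and 96.1 CPM in control and 48.5, 46.8 and 44.5 CPM in SAFB KD. Safb2 fell by 0.64 and Sltm by 0.70 on the log2 scale. Of these 3 genes, 0 were called lower beyond 2-fold, against 0.524% of all genes. The fall in RNA was thus partial, and the proteins were not measured here. Fibroblast markers were abundant, with a summed level of 18830 to 20748 CPM in control and 17447 to 17916 CPM in SAFB KD. Of these, 7 of 9 were lower (77.8%, against 20.1% of all genes), among them Pdgfra (-1.36) and Pdgfrb (-1.13). Macrophage markers, of interest since macrophages are rich in Hmox1, summed to 10.6 to 11.0 CPM in control and 13.9 to 15.7 CPM in SAFB KD. Of these, Cd68 was higher (0.99). Csf1r had 180, 168 and 157 counts in control and 192, 209 and 271 in SAFB KD, and was not called. Lyz2 had 97, 118 and 94 counts in control and 74, 99 and 112 in SAFB KD, and was not called either. Ptprc, Adgre1 and Marco had 4, 2 and 0 counts over all 6 libraries. Endothelial markers summed to 7.89 to 8.39 CPM in control and 9.38 to 10.4 CPM in SAFB KD. Of 3 tested, 1 was called higher (33.3%, against 21.4% of all genes). Cdh5 had 311, 295 and 240 counts in control and 292, 351 and 429 in SAFB KD. Pecam1 had 50, 28 and 25 against 69, 55 and 60, Tek at most 9 in a library, and Kdr 0. Epithelial markers summed to at most 1.39 CPM, with Epcam, Krt5 and Krt18 at 0, and hepatocyte markers to at most 0.0595 CPM. The part of these shifts in the levels of the 10 genes was not tested, and in bulk RNA fewer cells of a type and less RNA per cell cannot be told apart.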

How the data were processed

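Strand-specific libraries were made from bead-purified polyadenylated RNA, per the labels. The deposited values are raw counts of reads per gene, 1 library per file, which the authors made with STAR 2.7.9a on GRCm38 (mm10 and deepTools 3.5.1 are also named in the submitters' processing notes). That the column holds reverse-stranded gene counts was inferred from the methods. Such counting keeps uniquely aligned reads that overlap the exons of 1 gene, and reads shared by overlapping genes or close copies are left out. Symbols, coordinates and exonic lengths came from the GENCODE annotation of GRCm38, matched by identifier without version (54409 of 54532).

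Genes with at least 10 reads summed over the 6 libraries (19452) were scaled by TMM and compared in R 4.3.3 by edgeR 4.0.16 (quasi-likelihood test), and beyond 2-fold with glmTreat, both 2-sided, with Benjamini-Hochberg adjustment over all genes and a threshold of 0.05. The biological coefficient of variation was 3.49%. The SE is the log2 fold change divided by the square root of its F statistic. The scripts were tested on simulated data. DESeq2 1.42.0, limma-voom (limma 3.58.1), other filters and scalings, a replicate block and leaving out each library were tried.

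The members and lists were chosen with earlier results of these data known. Named genes were the members, the knockdown targets, up to 6 genes of each list with the smallest adjusted p, list genes that averaged 100 CPM or more, genes overlapping a member, and the 5 nearest to Hmox1 and to Eid3; where at most 5 genes made up a count they were named as well, after their values were seen. GAAGAA was counted on the longest annotated transcript in place of merged exons. Figures used matplotlib 3.10.9.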

Additional observations from a re-analysis of the deposited data

How the results depend on the processing

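Every member kept its direction in all 13 alternatives. Log2 fold changes ran from 1.82 to 1.88 for Hmox1, from 1.48 to 1.62 for Slc7a11 and from 2.12 to 2.41 for Eid3, and these 3 stayed the members called higher beyond 2-fold by count (3 in each alternative, an analysis added after the data were seen). Members called lower rose from 1 to 3 with the filterByExpr filter and with total counts only, and to 2 with DESeq2 size factors and with DESeq2, through Gclm and Keap1. Leaving out 1 library gave 1 to 2, with Gclm added without control 2 or SAFB KD 1. In the metal response, 1 gene was called higher with total counts only and with DESeq2, and 0 lower with no filter on low counts and with DESeq2. Leaving out 1 library gave 1 to 2 higher and 0 to 1 lower. Beyond 2-fold, DESeq2 called 76 higher and 55 lower of all genes and limma-voom 79 and 58. The count of other NRF2 targets beyond 2-fold was 0 with total counts only and 0 to 1 on leaving out 1 library. The looser motif TGANNNNGC was in 7 of 9 member promoters in place of 4. The cause of these changes was not tested.

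Replicate numbers did not pair the libraries: deviations of same-numbered libraries from their group means correlated at 0.053, 0.015 and -0.0011. With the replicate block, 4186 genes were called higher and 3931 lower, and members at 5 and 1. Depth limits Eid3 most, since it had as few as 44 counts in a library.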
